A study of Saccharomyces cerevisiae with 32 samples.

Results

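The septins and bud neck genes described here are 10 of the 5449 Saccharomyces cerevisiae genes read from the arrays. They were chosen by name, but with earlier results of these data known. Each had 1 probe set, and all 10 were bright enough to be tested among 5377 genes. They comprise the 5 septin genes of growing cells (CDC3, CDC10, CDC11, CDC12 and SHS1) and 5 genes whose products act at the bud site or the bud neck (GIC1, GIC2, BNI4, HSL1 and BNI1). The data were 32 expression arrays of CEN.PK113-7D, a MATa laboratory strain with no introduced allele in the labels, kept at 30 °C and pH 4.0 in continuous culture while dissolved oxygen oscillated with a period of about 2 h. Samples were taken 4 min apart, between 10.0 h and 12.1 h on the labels' time scale, each was hybridised to its own array, and the labels give each sample a phase angle of the oscillation. The samples form 1 group with 1 array per time point, nothing in the labels says that they came from separate cultures, and p-values therefore measure only the spread of these arrays around a fitted curve.

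In budding yeast, a bud grows out at a site that the GTPase Cdc42 marks on the cell surface. Septins assemble there into filaments that form a collar at the neck between mother and bud. The collar holds enzymes of wall synthesis and the kinases that report bud formation to the cell cycle, and it is a barrier between the membranes of the 2 cells. Gic1 and Gic2 are related effectors of Cdc42 that help recruit septins to the site of budding, and Bni1 is a formin that assembles actin cables toward the bud. Bni4 links chitin synthase to the septins, and Hsl1 is a septin-bound kinase that acts against the mitotic inhibitor Swe1.

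The arrays were bright against their background. Per array, S. cerevisiae probe sets had a median signal between 1436 and 2340.2, against 5.4 to 9.8 for the fission yeast probe sets on the same arrays, and correlations between arrays ran from 0.712 to 0.995. The deposited array medians spanned 0.70 on the log2 scale, so arrays were quantile normalized, and signals below are intensities after that step. The 6 markers of MATa cells had median signals from 3794 (STE6) to 11065 (MFA2). The 4 markers of the opposite mating type had medians from 73.4 (MF(ALPHA)2) to 1113 (SAG1) and none was at 0, while the upper limit of the background was 19.9.

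The members that changed most were highest early in the cycle, in the samples at 46.8° for GIC2, 71.7° for BNI4 and 84.2° for HSL1. The septin transcripts moved less, by 1.47-fold to 2.34-fold between their lowest and highest samples, and CDC11, GIC1 and BNI1 had their highest samples between 159° and 184°, a timing that moved when arrays were scaled to control transcripts instead. In the fit of 1 cosine curve over the phase angle, all 10 members varied (limma moderated F test, Benjamini-Hochberg adjusted p under 0.05), but so did 91.3% of all genes tested, so this count says nothing particular about the members. Neighbouring samples were not independent of each other (median lag-1 autocorrelation of the residuals 0.66). After whitening for it, which removes the correlation between neighbours before the test, 6 members passed (GIC2, BNI4, HSL1, GIC1, CDC10 and BNI1) against 67.6% of all genes. With a larger coefficient, 0.80, which allows for the terms fitted, 4 members passed (GIC2, HSL1, BNI4 and GIC1) against 49.1% of all genes. In samples of whole cultures, fewer budding cells and less RNA per cell cannot be told apart.

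**Figure D1:**
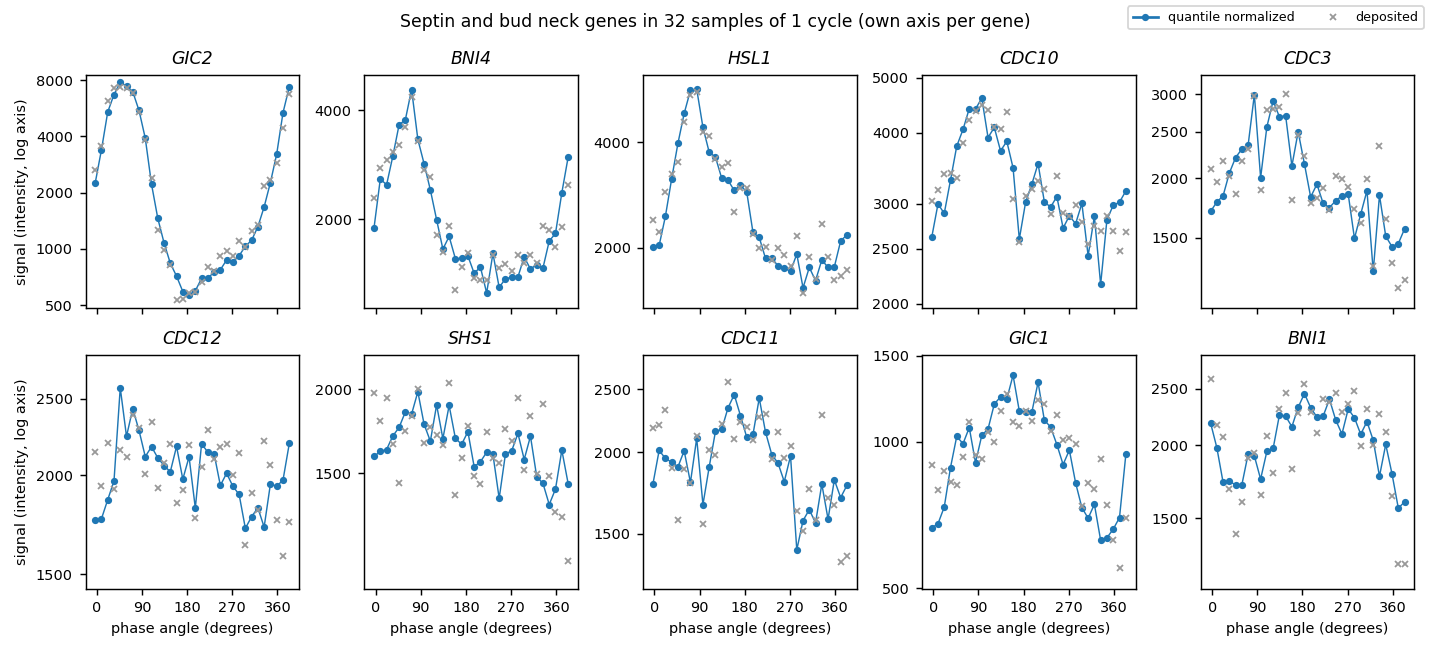
Signal of each of the 10 genes (log axis, own axis per gene) against the phase angle of the 32 samples in the order of sampling, quantile normalized (points and line) and as deposited (crosses). GIC2, BNI4 and HSL1 have their highest samples at 46.8°, 71.7° and 84.2°. The septin genes CDC3, CDC10, CDC11, CDC12 and SHS1 have noisier courses with smaller fold changes.

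GIC2 (YDR309C) had the widest course of the 10. Its signal was lowest at 566 (184°), had a median of 1385 and was highest at 7799 (46.8°), a 13.8-fold difference. The 6 neighbouring samples from 21.8° to 84.2° lay between 5409 and 7799, and those from 159° to 234° between 566 and 751. The fitted peak-to-trough range was 3.41 ± 0.22 on the log2 scale (SE, n = 32, limma adjusted p = 2.16e-13), larger than that of 98.4% of the genes tested, and 3.52 ± 0.32 after whitening. The fall was steep: 5508 at 84.2° and 1077 at 134°, 16 min later, a 5.12-fold difference. The return was also within a few samples, with 7395 at 23.8° against 1677 at 334°.

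GIC1 (YHR061C), which encodes the related effector, ran differently. Its signal was lowest at 628 (334°), had a median of 973 and was highest at 1368 (159°), a 2.18-fold difference, and 18 of 32 samples lay above the middle of its log2 span. The fitted range was 0.86 ± 0.07 (SE, n = 32, limma adjusted p = 1.14e-11) and 0.88 ± 0.17 after whitening. Its fitted peak lay 108° after that of GIC2 (95% interval 83.6° to 132°, with whitened errors taken as independent and the interval not adjusted for the number of pairs). With the larger coefficient the SE of both peaks was larger, and no interval was computed. The Pearson correlation of the pair over the 32 samples, which share arrays and normalization, was -0.36. The ratio of GIC2 to GIC1 on the same array is not changed by 1 scaling factor per array, though quantile normalization can change it. In the deposited values it spanned 4.31 on the log2 scale, with its highest value at 23.8° and its lowest at 159°.

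BNI4 (YNL233W) also had its highest samples early in the cycle. Its signal was lowest at 1254 (221°), had a median of 1700.4 and was highest at 4566 (71.7°), a 3.64-fold difference, and 10 of 32 samples lay above the middle of its span. The 5 samples from 34.3° to 84.2° lay between 2990 and 4566, above all other samples. In the cosine fit its range was 1.30 ± 0.12 (SE, n = 32, limma adjusted p = 6.35e-10) and 1.35 ± 0.24 after whitening. SKT5, the chitin synthase activator that Bni4 binds, and CHS3, the catalytic subunit that makes the chitin ring of the neck, had maxima at 50.5° and 51° on curves with 2 harmonics, against 62.5° for BNI4. Their fitted ranges were 1.28 ± 0.11 and 1.00 ± 0.10; CHS3 was named after its values were seen.

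HSL1 (YKL101W) had the second widest course by fitted range. Its signal was lowest at 1538 (296°), had a median of 2159 and was highest at 5673 (84.2°), a 3.69-fold difference. The rise was faster than the fall: the signal was 4834 at 59.2° against 2031 at 9.35°, a 2.38-fold difference in 16 min, whereas it was still 3158 at 134° (1.80-fold below the highest sample) and 2883 at 184°. The fitted range was 1.46 ± 0.12 (SE, n = 32, limma adjusted p = 6.86e-11) and 1.43 ± 0.21 after whitening. The genes of the other septin-bound kinases of this family, GIN4 and KCC4, had ranges of 1.48 ± 0.11 and 1.69 ± 0.14 with maxima at 68.5° and 77°, against 88.5° for HSL1. SWE1, the kinase that Hsl1 helps to remove, had 1.60 ± 0.14 and 78°. GIN4 and SWE1 were named after their values were seen.

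The 5 septin genes are described in the order of the subunits in the complex, from its centre to its ends. CDC10 (YCR002C), whose product lies at the centre of the rod-shaped septin complex, was lowest at 2162 (334°), had a median of 3020.4 and was highest at 4602 (96.6°), a 2.13-fold difference. The 6 samples from 46.8° to 109° lay between 3787 and 4602. Its fitted range was 0.62 ± 0.08 (SE, n = 32, limma adjusted p = 3.38e-07), and 0.65 ± 0.21 with adjusted p = 0.0239 after whitening. CDC10 alone among the septin genes passed that whitened fit.

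CDC3 (YLR314C), encoding the subunit next to Cdc10, was lowest at 1277 (321°), had a median of 1847 and was highest at 2991 (84.2°), a 2.34-fold difference. Its samples from 109° to 146° also lay between 2561 and 2903, but the sample between them and the highest, at 96.6°, had 2004. The fitted range was 0.73 ± 0.09 (SE, n = 32, limma adjusted p = 9.14e-08), and 0.70 ± 0.27 with adjusted p = 0.0624 after whitening.

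CDC12 (YHR107C), which joins Cdc3 to the end subunits, was lowest at 1714 (296°), had a median of 1995 and was highest at 2581 (46.8°), a 1.51-fold difference. The highest sample stood above its neighbours, and the next highest was 2429 at 71.7°. Its fitted range was 0.26 ± 0.06 (SE, n = 32, limma adjusted p = 9.05e-04), and 0.31 ± 0.15 with adjusted p = 0.189 after whitening. In the deposited values without scaling the range was 0.12, with adjusted p = 0.361.

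CDC11 and SHS1 encode the subunits that can take the end position of the rod. CDC11 (YJR076C) was lowest at 1418 (284°), had a median of 1929 and was highest at 2451 (159°), a 1.73-fold difference. Its samples from 122° to 221° lay between 2109 and 2451, while those from 46.8° to 109° lay between 1663 and 2101. The fitted range was 0.40 ± 0.07 (SE, n = 32, limma adjusted p = 1.07e-05), and 0.39 ± 0.18 with adjusted p = 0.135 after whitening. SHS1 (YDL225W) was lowest at 1349 (346°), had a median of 1626 and was highest at 1984 (84.2°), a 1.47-fold difference, the smallest of the 10 members. Its fitted range was 0.25 ± 0.06 (SE, n = 32, limma adjusted p = 6.43e-04), with adjusted p = 0.363 after whitening and 0.862 in the deposited values without scaling.

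Over the 32 samples, Pearson correlations between the 10 pairs of septin genes ran from 0.31 (CDC11 with SHS1) to 0.75 (CDC3 with SHS1), with a median of 0.56; all share arrays, normalization and neighbouring time points. Ratios of deposited signals within an array showed how the subunits moved against each other. Scaling by 1 factor per array does not change them, though quantile normalization can. CDC10 over the mean of the other 4 septins was highest at 96.6° and lowest at 334°, and spanned 1.04 on the log2 scale. CDC11 over the other 4 was lowest at 96.6° and highest at 209°, a span of 0.71. The corresponding spans were 0.79 for CDC3, 0.62 for SHS1 and 0.61 for CDC12. No test was run on these ratios.

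**Figure D2:**
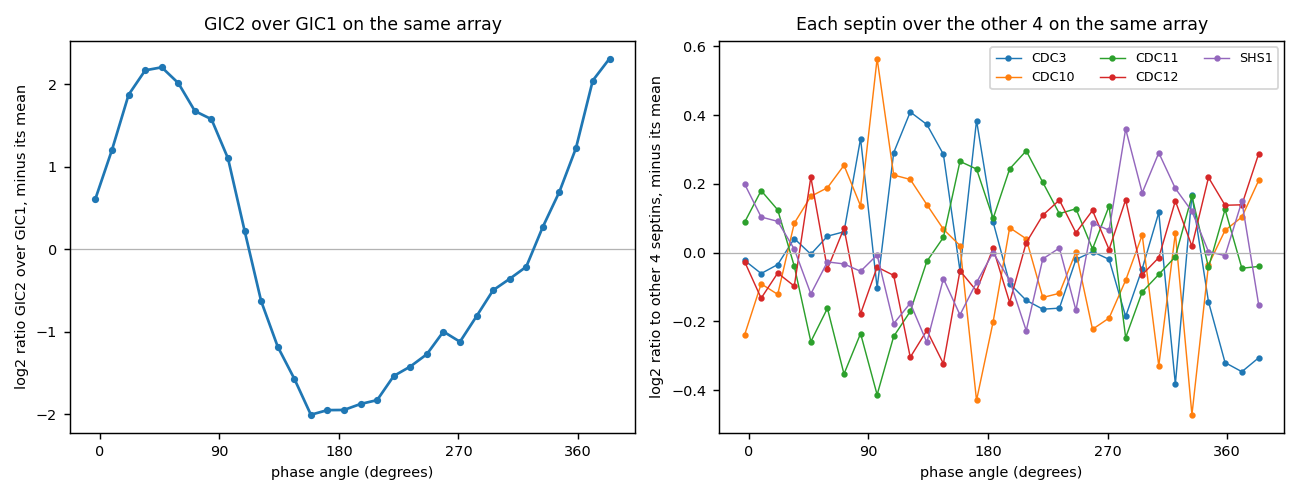
Log2 ratios of deposited signals on the same array, each minus its mean over the 32 arrays, against the phase angle; the left panel shows GIC2 over GIC1 and the right panel each septin gene over the mean of the other 4. The GIC2 to GIC1 ratio spans 4.31 with its lowest point at 159°, and on the right CDC10 is highest at 96.6°, where CDC11 is lowest. That CDC10 point is a single sample above its neighbours, and CDC10 and CDC11 are each in the other's denominator.

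With quantile normalization BNI1 (YNL271C) ran against the early genes. Its signal was lowest at 1560.1 (11.1°), had a median of 2064 and was highest at 2451 (184°), a 1.57-fold difference. The 4 successive samples from 21.8° to 59.2° lay between 1711 and 1735, the last sample of the series (23.8°) had 1602, and those from 134° to 284° between 2090 and 2451. The cosine fit gave a range of 0.42 ± 0.05 (SE, n = 32, limma adjusted p = 7.14e-08), and 0.45 ± 0.13 with adjusted p = 0.0106 after whitening. Its correlation with GIC2 was -0.89, the lowest among the 45 pairs of members, and that of GIC2 with BNI4 was 0.91, the highest. With arrays scaled to control transcripts the curve of BNI1 did not pass (limma adjusted p = 0.243), and its highest sample was at 71.7°. In the deposited values its highest sample was at 357° and its fitted peak at 232°. The gene of the other formin, BNR1, which is anchored at the bud neck, had a range of 1.07 ± 0.15 and its maximum at 55.5°, against 190° for BNI1.

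Of the 10 members, 3 (GIC2, HSL1 and BNI4) varied with a fitted range of 2-fold or more, against 29.6% of all genes tested. The median fitted range of the 10 was 0.68, against 0.63 over all genes, both on the log2 scale. The ranges of CDC12 and SHS1 exceeded those of 16.5% and 15.3% of the genes tested, and the range of CDC3, the largest among the septins, that of 56.2%.

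**Figure D3:**
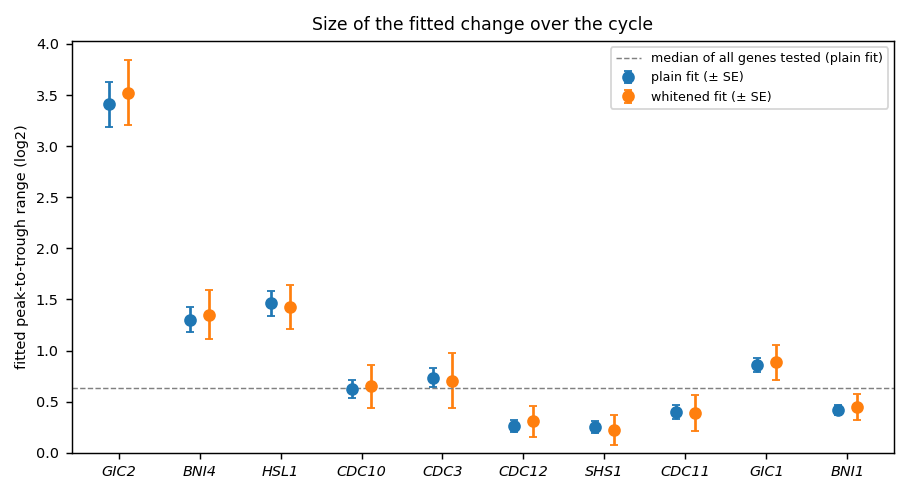
Fitted peak-to-trough range of each gene on the log2 scale, with SE, in the plain fit and after whitening; the dashed line is the median over all genes tested, 0.63. GIC2 reaches 3.41, BNI4 and HSL1 lie at 1.30 and 1.46, and CDC10 (0.62), CDC11, CDC12, SHS1 and BNI1 lie below the line.

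The courses were not single cosines. A second harmonic passed its test in 9 members (limma moderated F test, adjusted p under 0.05), against 83.9% of all genes, so this too is near the background. BNI1 had an adjusted p of 0.192, and 5 members (GIC2, BNI4, HSL1, CDC10 and CDC12) passed after whitening, against 72.8%. On curves with 2 harmonics the maximum was at 52° for GIC2, 62.5° for BNI4, 73.5° for CDC12 and 88.5° for both HSL1 and CDC10. It was at 98.5° for SHS1 and 112° for CDC3. For CDC11, GIC1 and BNI1 it lay at 183°, 185° and 190°. Between 45° and 90° there were thus 5 of 10 maxima, against 14.8% of the varying genes. Between 180° and 225° there were 3, against 3.36%. This placing depends on the curve used: the single-cosine peaks of CDC11 and GIC1 were at 153° and 159°, and that of BNI1 at 218°. The window from 135° to 180° held the maxima of 32.6% of the varying genes on curves with 2 harmonics.

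Many differences in peak time were within their errors. With errors after whitening, the 95% interval of the difference in fitted peak excluded 0 for 23 of 45 pairs, among them 2 of the 9 pairs of neighbours in the order of peaks. That count includes pairs with CDC3, CDC11, CDC12 or SHS1, whose whitened curves did not pass. For such curves the error of a peak is not reliable, so the intervals of those pairs decide nothing. Some wide gaps also held 0, such as SHS1 after BNI4, by 53.7° (-16.0° to 123°). The 2 pairs of neighbours were HSL1 after BNI4, by 37.7° (13.4° to 61.9°), and BNI1 after GIC1, by 71.7° (31.6° to 112°). BNI4 followed GIC2 by 20.6° (-1.14° to 42.4°), and CDC10 followed HSL1 by 6.95° (-29.2° to 43.1°). Among the septin genes no difference in fitted peak had an interval that left out 0, but only CDC10 had passed the whitened fit. All these intervals used the coefficient of the residuals. With the larger coefficient the SE of every member's peak was larger, for GIC1 15.1° against 11.2°, and BNI1 and CDC10 did not pass either. Intervals were not computed with it, and those given here may be too narrow.

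Array scaling moved these maxima. The poly-A control transcripts of the array were dimmest in the 5 samples from 34.3° to 84.2°, and with arrays scaled to them the median of all genes itself had a course with a range of 0.59 and a peak at 61.7°. With that scaling 9 members varied, BNI1 not (range 0.30 ± 0.17, limma adjusted p = 0.243), and all 9 had their maximum between 45° and 90°, against 53.3% of the varying genes. The maxima of GIC2 (53.5°), BNI4 (61°), HSL1 (78°), CDC10 (74°) and CDC12 (64°) stayed in the same window. Those of CDC11 and GIC1 came to 60.5° and 74.5°, against 183° and 185° with quantile normalization. Against the mean of the 5 septins on the same array in the deposited values, where 1 factor per array cancels, GIC1 was lowest at 84.2° and highest at 209°. That lowest log2 ratio (-1.49) was a single sample, with -1.11 at 71.7° and -1.21 at 96.6° beside it. Ratios nearly as low stood at 9.35° (-1.44) and 11.1° (-1.46). BNI1 in the same ratio was lowest at 59.2° and highest at 284°. Without the 5 samples of lowest poly-A signal, all 10 members varied, with ranges of 2.97 for GIC2, 0.98 for BNI4 and 1.16 for HSL1. What part the brightness of the arrays had in the timing was not tested.

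**Figure D4:**
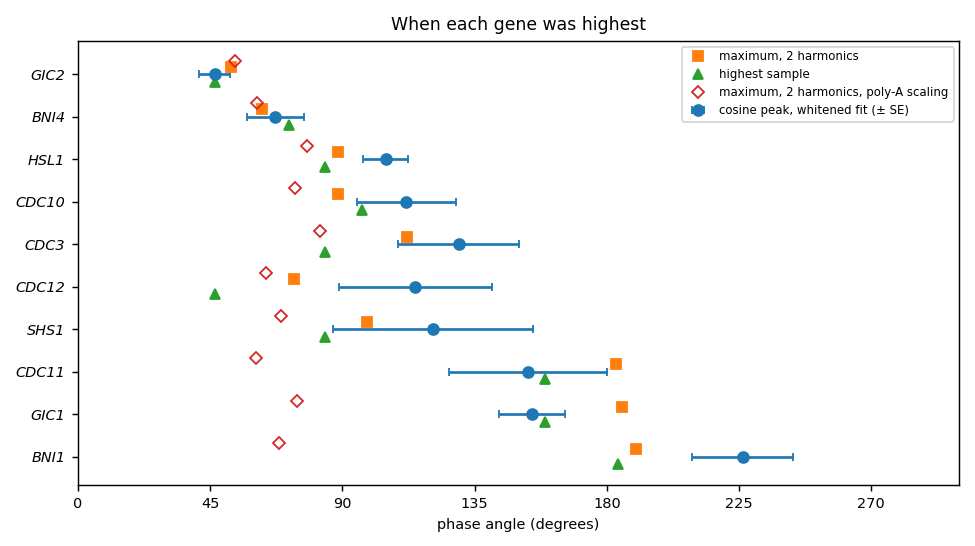
Phase of the highest level of each gene by 4 measures: the peak of the cosine curve after whitening with its SE, the maximum of a curve with 2 harmonics, the highest sample, and the maximum of a curve with 2 harmonics under poly-A scaling. The whitened curves of CDC3, CDC11, CDC12 and SHS1 did not pass, so the SE of their peaks is not reliable. On curves with 2 harmonics GIC2, BNI4, HSL1, CDC10 and CDC12 lie between 45° and 90° with both scalings. On the same curves CDC11, GIC1 and BNI1 lie at 183° to 190° with quantile normalization and at 60.5° to 74.5° with poly-A scaling.

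The series ran slightly past 1 turn, so the last 3 samples repeat the phases of the first 3 within 1.93°. GIC2 was higher in the last 3, by 0.51, 0.66 and 0.45 on the log2 scale, and CDC3 was lower, by values of -0.24, -0.29 and -0.23. BNI1 was also lower, by -0.29, -0.34 and -0.11. The mean differences of the other members lay between -0.12 (CDC11) and 0.18 (CDC12). These differences were not tested.

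Counts for related genes are to be read against the shares over all genes tested, which were 91.3% varying, 67.6% after whitening, 49.1% with the larger coefficient and 29.6% by at least 2-fold, with a median range of 0.63. Of 27 genes of septin kinases and other bud neck proteins, 24 varied, 19 after whitening, and 13 by at least 2-fold, with a median range of 1.00. The share that varied, 88.9%, was thus near that of all genes. The largest ranges were those of the bud site marker gene AXL2 (2.27 ± 0.13, maximum at 102.5°), KCC4, and the Cdc42-activated kinase gene CLA4 (1.65 ± 0.12, 49°). HSL7, whose product binds Hsl1, the kinase gene ELM1 and NBA1 did not pass the single-cosine test, with ranges from 0.13 to 0.14. ELM1 and NBA1 passed the test of a second harmonic (limma adjusted p = 3.53e-07 and 8.81e-05), as did HSL7 (0.0329), and all 27 genes of the list varied with poly-A scaling. All 11 bud site selection genes varied and 8 did after whitening, also near the shares of all genes, led by the Ras-type GTPase gene RSR1 (2.46 ± 0.18, 45.5°), AXL2 and RAX2 (1.47 ± 0.16, 45°).

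Of 19 genes of the Cdc42 module 16 varied, 11 after whitening and 5 with the larger coefficient, 2 of them by at least 2-fold, and the median range was 0.37, against 0.63 over all genes. With poly-A scaling all 19 varied. CLA4, STE20 (1.19 ± 0.15), encoding a related kinase, and MSB1 (0.80 ± 0.13) led. The exchange factor gene CDC24 (0.08), ZDS1 (0.07) and the GTPase activator gene RGA2 (0.05) did not pass the single-cosine test. RGA2 passed the test of a second harmonic (limma adjusted p = 4.87e-04), and CDC24 and ZDS1 did not. Of 13 polarisome, formin and actin cable genes 10 varied, 7 after whitening and 2 with the larger coefficient, with a median range of 0.38; with poly-A scaling 12 varied. BNR1 led, followed by the polarisome scaffold genes PEA2 (0.99 ± 0.12, 42°) and SPA2 (0.56 ± 0.09, 73°). The tropomyosin gene TPM1 (0.13), SMY1 (0.20) and the Bni1 partner gene BUD6 (0.06) did not pass the single-cosine test. TPM1 passed that of a second harmonic (limma adjusted p = 1.85e-04), and SMY1 and BUD6 did not.

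Of 20 genes known for their late G1 peak in the cell cycle, all 20 varied, also after whitening, against 91.3% and 67.6% of all genes. Their median range was 1.69. With quantile normalization 14 maxima lay between 45° and 90°, against 14.8% of all varying genes. With poly-A scaling that window held 53.3% of all varying genes. The S-phase cyclin gene CLB6 (3.27 ± 0.22, 74.5°), TOS4 (2.86 ± 0.12, 81.5°) and the cyclin gene PCL1 (2.55 ± 0.14, 68.5°) led. The maxima of GIC2, BNI4, CDC12, HSL1 and CDC10 lay in the same window, which was not particular to late G1 genes. With quantile normalization it also held the maxima of 56.2% of the varying Cdc42 module genes and 83.3% of the MATa markers. For the varying genes of the CLB2 cluster, described below, the share was 7.69%. Of 15 genes of the end of mitosis and early G1 all varied, also after whitening (91.3% and 67.6% of all genes), with a median range of 1.54. They had 6 maxima between 135° and 180° (32.6% of all varying genes) and 5 between 180° and 225° (3.36%). With quantile normalization the latter window also held CDC11, GIC1 and BNI1 on curves with 2 harmonics. The single-cosine peaks of CDC11 and GIC1 lay before 180°. The wall protein gene PIR1 (2.02 ± 0.06, 152°), the cyclin gene PCL9 (1.99 ± 0.08, 156°) and the daughter wall glucanase gene DSE4 (1.78 ± 0.16, 189.5°) led. In the CLB2 cluster, the genes of G2 and mitosis, 13 of 14 varied and 9 did after whitening, near the shares of all genes, with a median range of 0.61. The kinase gene KIN3 (1.18 ± 0.08), the neck protein gene HOF1 (1.02 ± 0.10) and the septum chitin synthase gene CHS2 (0.88 ± 0.09) led. CLB2 itself (0.37 ± 0.17) did not pass the single-cosine test. It passed the test of a second harmonic (limma adjusted p = 0.0081), and all 14 genes of the cluster varied with poly-A scaling. The sporulation septin genes SPR3 and SPR28 were dim, with signals from 69.9 to 225 and from 62.7 to 209.5. Their ranges were 0.90 ± 0.17 and 0.63 ± 0.13, and their adjusted p after whitening were 0.0612 and 0.0499.

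The genes most like the members outside the list were ranked by Pearson correlation over the 32 samples, which share arrays and time order. Nearest to the mean of the 5 septins were VAC14 (0.945), the forkhead-associated domain gene PLM2 (0.942), the spindle pole body gene SPC42 (0.936), RTT105 (0.926), SIM1 (0.924) and UBP9 (0.920). GIC2 was nearest to SKT5 (0.986) and the urea transporter gene DUR3 (0.983). BNI4 was nearest to the wall stress sensor gene MID2 (0.972) and DSF2 (0.972), and HSL1 to the thymidylate synthase gene CDC21 (0.977) and the cohesin subunit gene IRR1 (0.976). CDC10 was nearest to ZIM17 (0.908) and the checkpoint kinase gene DUN1 (0.907), and CDC3 to SBE22 (0.899) and VPS71 (0.877). CDC12 was nearest to TGL5 (0.809) and SRL1 (0.805), and SHS1 to the DNA repair gene RAD5 (0.797) and YOL159C-A (0.791). CDC11 was nearest to the RNA helicase gene DHH1 (0.846), and both CDC11 (0.791) and GIC1 (0.932) had the histone H2B gene HTB2 among their nearest. GIC1 was also near the daughter separation gene EGT2 (0.927), and BNI1 was nearest to the ABC transporter gene YOR1 (0.923) and TIM21 (0.905).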

How the data were processed

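Total RNA was labelled and hybridised to Affymetrix Yeast Genome 2.0 arrays, per the labels' protocols. The authors deposited linear intensities per probe set. GCOS is the software in the submitters' processing notes, and no source used here states its scaling. Probe sets were named through the array annotation and the R64 gene table (5498 for S. cerevisiae); 3470 unnamed, 213 control, 1746 S. pombe and 1 ambiguous probe sets were not tested. After 1.9 (the 10th percentile over all arrays) was added, log2 signals were quantile normalized. The brightest probe set stood for a gene, and a gene was tested if its mean exceeded 4.44, the level below which 95% of S. pombe probe sets lay.

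Calculations used R 4.3.3 and limma 3.58.1: cosine and sine of the phase angle, a moderated F test over all 5377 genes, delta-method errors, and a second harmonic. Whitening used 1 autoregressive coefficient for all genes. On simulated autocorrelated data the plain fit called many unchanged genes, whitening with the coefficient of the residuals fewer, and whitening with a coefficient corrected for the terms fitted hardly any.

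The members and lists were chosen with earlier results of these data known. Named genes are the members, up to 3 varying genes of largest range and up to 4 that did not pass per list, and the nearest genes by correlation. AIP5 matched no probe set by name. The number of arrays limits precision. Alternatives were scaling, filters, pseudocounts, averaging of probe sets, time or the labels' array number as terms, whitening, subsets of samples and 2 harmonics. The comparison of phases has no replicate arrays.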

Additional observations from a re-analysis of the deposited data

How the results depend on the processing

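For the 10 members, 162 of 190 alternative values of range and peak kept their direction and side of the threshold. In 26 the call was lost, and no direction was read from those peaks. Among the 26 was BNI1 with poly-A scaling, whose peak moved by 113°. In 2 the call stayed and the direction turned. GIC2 passed in all 19 settings tried. The single-cosine calls, 10 of 10 members in the main analysis, became 6 after whitening, 4 with the corrected coefficient of the 2-harmonic residuals (0.80; 2639 of all genes) and 1, GIC2, with that of the single-cosine residuals (0.96; 405 of all genes), a coefficient that also holds the misfit of a single cosine. A second harmonic was called in 9 members, and in 4 with the deposited values, 5 after whitening, 5 without the 5 samples dimmest in poly-A controls, and 2 with the coefficient of 0.80 (2586 of all genes). With that coefficient the Cdc42 module gave 5 calls, the polarisome list 2 and the sporulation septins 0; the sporulation septins gave 1 with poly-A scaling (with 1 or 2 harmonics) and 1 after whitening. The maxima of CDC11 and GIC1 turned to the other side of the cycle on curves with 2 harmonics with poly-A scaling, where their ranges were 1.01 and 1.17; the cause was not tested. The corrected coefficients, leaving samples out by poly-A brightness, and poly-A scaling joined with 2 harmonics were chosen after seeing the data. No paired analysis was possible because the series has 1 group.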
